A study of Mus musculus with 24 samples.

Results

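The inguinal genotype by knockdown interaction asks, gene by gene, whether siRNA against Cebpb changed RNA levels by a different factor in adipocyte cultures from Senp2 knockout mice than in control cultures. It was taken as the log2 fold change of siCEBPb over siNS in knockout cultures minus the same fold change in control cultures. A negative value means that the knockdown lowered a gene further, or raised it less, in knockout cultures, and a positive value the reverse. All 12 inguinal libraries enter it, of 24 in the series, and the rule that chose them used only their labels. They form 4 groups of 3: aKO siCEBPb, aKO siNS, Cont siCEBPb and Cont siNS. The aKO cells came from Senp2flox/flox mice that also carry Adipoq Cre, and the Cont cells from Senp2flox/flox mice without it, so every group carries the floxed allele. Both were cells of the stromal vascular fraction of inguinal white fat (iWAT), induced to become adipocytes for 2 days with dexamethasone, isobutylmethylxanthine and insulin and kept for another 5 days with insulin. The 12 other libraries have the same groups from epididymal fat (eWAT). The labels do not explain siNS, give no age, and do not tell what a replicate is (an animal, a culture or a repeat), so the spread behind each p-value may be technical.

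C/EBPβ is a transcription factor that acts early in adipocyte differentiation and helps to switch on Cebpa and Pparg, which maintain the fat cell. SENP2 is a protease that removes the small protein SUMO from other proteins, and by its title the study concerns SUMO on C/EBPβ and the browning of white fat. The Adipoq promoter that drives Cre is known as a promoter of adipocytes and not of their precursors, which limits the cells of a culture in which Senp2 can be deleted.

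Gene counts ranged from 8435494 to 14025668 in 11 inguinal libraries. The other library, aKO siNS replicate 2, held 603585, with 93.3% of its reads not aligned, and the interaction is given with and without it. Its composition differed too: over genes, chi-square per degree of freedom was 42.3 and 46.8 against the other aKO siNS libraries, and at most 8.49 between any other inguinal libraries of 1 group. The summed level of 35 collagen and matrix genes was 159510 CPM in it and 101520 and 103390 in the other aKO siNS libraries, that of 38 ribosomal proteins 6305 against 18275 and 19376, and that of 48 respiratory chain genes 2348 against 5611 and 5779. Levels are given as CPM, read counts per library size with the TMM correction, and those of rare genes move in coarse steps in that library. Marker genes that usually tell the depots apart did not pass the test here. Wt1 averaged 14.4 ± 0.238 CPM in iWAT Cont siNS and 15.1 ± 0.825 CPM in eWAT Cont siNS (SD, n = 3 each, adjusted p = 0.810). Tbx15, En1 and Hoxc10 did not pass either, and Hoxc9 was higher in iWAT by 0.40 (log2) with an adjusted p of 0.0583. Over all genes, 178 of 14785 (1.20%) were called between iWAT and eWAT in Cont siNS. That count depended strongly on the fit: it was 1123 of 14973 without aKO siNS replicate 2, a library in neither group. Libraries of iWAT and eWAT with the same group and number deviated together from their group means on average, with a mean r of 0.252 over 12 pairs. These pairs ranged from -0.528 to 0.748, and in aKO siNS numbers 1 and 2 were negative at -0.528 and -0.174. The mean over 24 pairs with different numbers was -0.120, a value tied to the first because deviations from a group mean cancel within the group. The epididymal values below are thus not a separate check of the inguinal ones.

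Cebpb itself (ENSMUSG00000056501) had 12.7, 19.2 and 23.5 CPM in aKO siCEBPb, 114, 103 and 127 in aKO siNS, 36.7, 37.6 and 33.7 in Cont siCEBPb and 145, 110.4 and 118 in Cont siNS. Its RNA fell with the siRNA in both genotypes, and the aKO siCEBPb libraries were below all 3 Cont siCEBPb libraries. On the log2 scale the knockdown was -2.69 (adjusted p = 6.88e-10) in aKO and -1.79 (adjusted p = 6.96e-08) in Cont. The difference between these, -0.90 ± 0.25 (SE), missed the threshold of 0.05 with an adjusted p of 0.0522, and the adjusted p ran from 1.79e-07 to 0.153 over 21 other settings, passing in 6 of them. This lower Cebpb level in aKO siCEBPb cultures accompanies every result below, and its part in them was not tested. Senp2 (ENSMUSG00000022855) had 53.7, 52.9 and 52.8 CPM in aKO siCEBPb, 49.1, 57.4 and 48.0 in aKO siNS, 48.0, 53.4 and 51.0 in Cont siCEBPb and 55.5, 51.3 and 46.2 in Cont siNS, levels that overlap in all 4 groups. Its log2 difference of aKO over Cont was 0.06 (adjusted p = 0.731) under siCEBPb and -0.06 (adjusted p = 0.688) under siNS. The deletion itself was not measured in these files, so the genotypes are those of the labels.

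The knockdown effect differed between genotypes for 519 of 14785 tested genes, 3.51% of them, by edgeR's quasi-likelihood test with Benjamini-Hochberg adjustment at a threshold of 0.05. The interaction was positive for 195 (1.32%) and negative for 324 (2.19%). Without aKO siNS replicate 2 it was called for 939 of 14973 genes (6.27%), 377 positive (2.52%) and 562 negative (3.75%). Both sets shared 510 genes, all with the same sign, so 9 calls were lost and 429 gained without that library. Leaving out any of 5 other libraries changed the count by more than 1.5 times: it was 291 without aKO siCEBPb 1, 304 without aKO siNS 3, 320 without Cont siCEBPb 1, 332 without Cont siNS 1 and 344 without aKO siNS 1. In each of the 12 fits that left out a single library, 206 of the 519 genes were called with the same sign, 73 positive and 133 negative. The genes described below are among these 206 unless their text says otherwise.

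More of the called genes responded to the knockdown in aKO than in Cont. The knockdown itself was called for 4624 genes in aKO (31.3%) and 3597 in Cont (24.3%). Of the 324 negative genes, the knockdown was called in aKO alone for 152, in both genotypes in the same direction for 105, in Cont alone for 45 and in opposite directions for 22. Of the 195 positive genes these counts were 91, 56, 34 and 14. The median knockdown effect of the negative genes was -0.87 in aKO and -0.0090 in Cont, and that of the positive genes 0.63 in aKO and -0.0011 in Cont, on the log2 scale. By the sign of the estimates, whether or not they passed, 163 negative genes were down in both genotypes and further in aKO, 141 were down in aKO and up in Cont, and 20 were up in both and less so in aKO. Among positive genes 97 were up in both and more so in aKO, 78 were up in aKO and down in Cont, and 20 were down in both and less so in aKO. Over all tested genes the estimates had opposite signs in 28.4%, the same sign and a larger size in aKO in 44.3%, and the same sign and a larger size in Cont in 27.3%. These medians and signs describe genes chosen on the same contrasts.

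**Figure D1:**
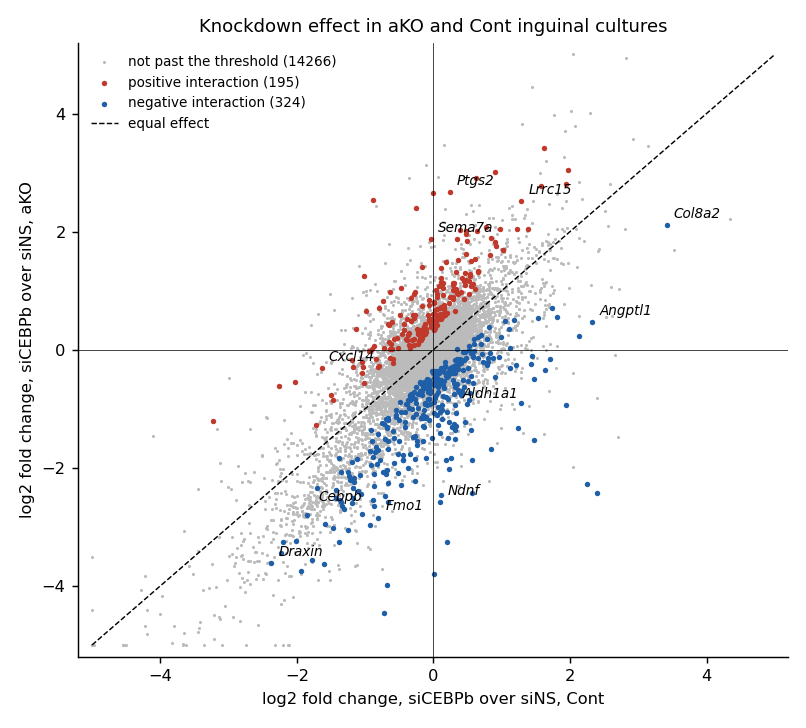
Each point is 1 of 14785 tested genes, with its log2 fold change of siCEBPb over siNS in aKO on the vertical axis and in Cont on the horizontal axis; 23 genes beyond 5 on either axis are drawn at the edge. The 324 genes with a negative interaction (blue) lie below the dashed line of equal effect and the 195 with a positive one (red) above it, with Ndnf near 0 in Cont and far below 0 in aKO.

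The same term can be read as a change of the genotype difference. Among the 324 negative genes, the median difference of aKO over Cont was -0.22 (log2) under siCEBPb and 0.53 under siNS. The 195 positive genes had a median difference of 0.17 under siCEBPb and -0.49 under siNS. The estimated sign of the difference turned in 208 negative and 154 positive genes. It kept its sign and was smaller under siCEBPb in 81 negative and 40 positive genes, and larger in 35 and 1. Over all tested genes these 3 classes held 40.1%, 35.5% and 24.4%. The difference itself was called under siCEBPb alone for 84 negative and 37 positive genes, and under siNS alone for 172 and 113. Over all genes it was called for 1483 (10.0%) under siCEBPb and 2243 (15.2%) under siNS. These counts were 942 under siCEBPb without aKO siCEBPb 1 and 1436 under siNS without aKO siNS 3.

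**Figure D2:**
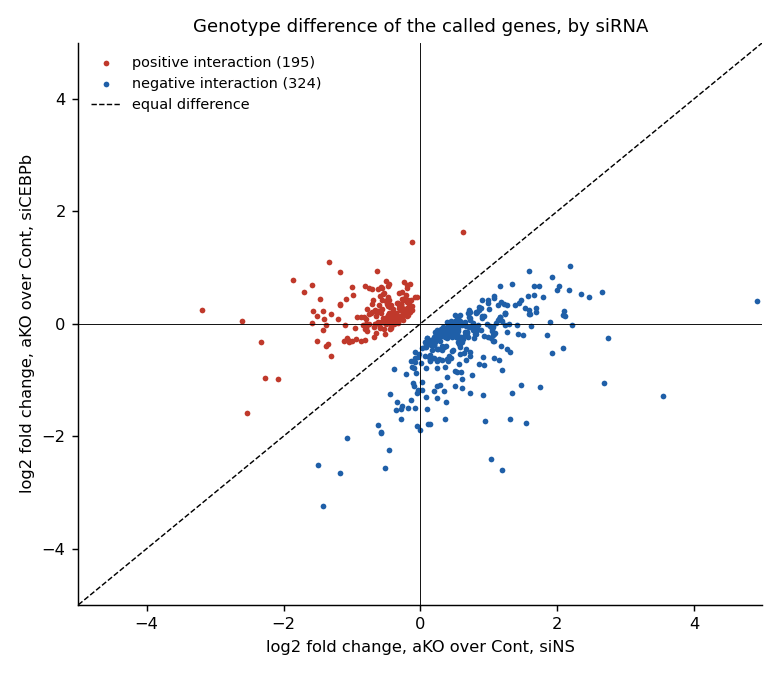
Genotype difference of the 519 called genes as log2 fold change of aKO over Cont, under siCEBPb on the vertical axis and under siNS on the horizontal axis, with the dashed line marking an equal difference. Most genes with a negative interaction (blue) lie right of 0 and below the line, and most with a positive one (red) lie left of 0 and above it.

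Ndnf, a secreted neurotrophic factor, had the smallest p of the interaction (ENSMUSG00000049001, chromosome 6, 65671590 to 65712326, plus strand, GRCm38). It had 2.30, 2.40 and 3.37 CPM in aKO siCEBPb, 16.5, 11.9 and 15.8 in aKO siNS, 8.56, 8.62 and 9.40 in Cont siCEBPb and 9.29, 8.12 and 7.10 in Cont siNS. The aKO siCEBPb libraries were the lowest and the aKO siNS libraries the highest, while the Cont groups overlapped. The interaction was -2.68 ± 0.18 (adjusted p = 5.36e-10) on the log2 scale with its SE, and -2.70 without aKO siNS replicate 2. The log2 difference of aKO over Cont was -1.73 (adjusted p = 1.94e-09) under siCEBPb and 0.95 (adjusted p = 1.93e-06) under siNS.

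In the next genes by p the aKO siNS libraries were again above all others. Slc7a2, a transporter of arginine and other cationic amino acids, had 39.5, 43.3 and 43.6 CPM in aKO siCEBPb, 91.9, 73.2 and 101 in aKO siNS, 61.4, 66.9 and 59.0 in Cont siCEBPb and 58.3, 61.4 and 52.3 in Cont siNS. It fell by 1.17 on the log2 scale in aKO, and its change in Cont was 0.12 (adjusted p = 0.345), between overlapping libraries. Its interaction was -1.29 ± 0.12 (adjusted p = 5.50e-07), and -1.32 without the shallow library. Vegfd, a growth factor for lymphatic vessels, had 225, 230.3 and 243 CPM in aKO siCEBPb, 508, 492 and 515 in aKO siNS, 265, 252 and 272 in Cont siCEBPb and 277, 300.1 and 295 in Cont siNS. The aKO siCEBPb libraries were the lowest and the aKO siNS libraries the highest, and none of the 4 groups overlapped. Its interaction was -0.98 ± 0.10 (adjusted p = 1.97e-06), and -0.99 without the shallow library. Gas1, a membrane-anchored co-receptor for Hedgehog proteins, had 132, 147 and 172 CPM in aKO siCEBPb, 493, 459 and 563 in aKO siNS, 186, 167 and 158 in Cont siCEBPb and 249.8, 242 and 238 in Cont siNS. It fell in both genotypes, with log2 changes of -1.77 (adjusted p = 1.39e-13) in aKO and -0.51 (adjusted p = 1.14e-04) in Cont, and the siCEBPb libraries of both genotypes overlapped. The Gas1 interaction was -1.25 ± 0.13 (adjusted p = 2.35e-06), and -1.30 without the shallow library.

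In other genes the knockdown had opposite effects. Fgfr2, a receptor for fibroblast growth factors, had 15.002, 14.1 and 14.2 CPM in aKO siCEBPb, 24.5, 21.8 and 30.4 in aKO siNS, 11.9, 12.0 and 11.7 in Cont siCEBPb and 9.95, 7.23 and 7.82 in Cont siNS. It fell in aKO and rose in Cont, with log2 changes of -0.92 (adjusted p = 3.28e-07) in aKO and 0.49 (adjusted p = 0.00591) in Cont, with no overlap between any of the 4 groups. Aldh1a1, an enzyme that makes retinoic acid from retinaldehyde, had 44.9, 65.0 and 54.9 CPM in aKO siCEBPb, 107, 77.1 and 108 in aKO siNS, 66.1, 60.0 and 62.8 in Cont siCEBPb and 45.1, 54.1 and 52.2 in Cont siNS. It fell in aKO (-0.93) and rose in Cont (0.32; adjusted p = 0.028), and the range of the aKO siCEBPb libraries overlapped both Cont groups. The interactions were -1.41 ± 0.17 (adjusted p = 2.30e-05) for Fgfr2 and -1.26 ± 0.15 (adjusted p = 2.30e-05) for Aldh1a1, or -1.42 and -1.29 without the shallow library. Pdp1, a phosphatase that activates pyruvate dehydrogenase, and Matn2, a matrix protein, had the same pattern with interactions of -1.16 ± 0.15 and -1.0005 ± 0.13.

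**Figure D3:**
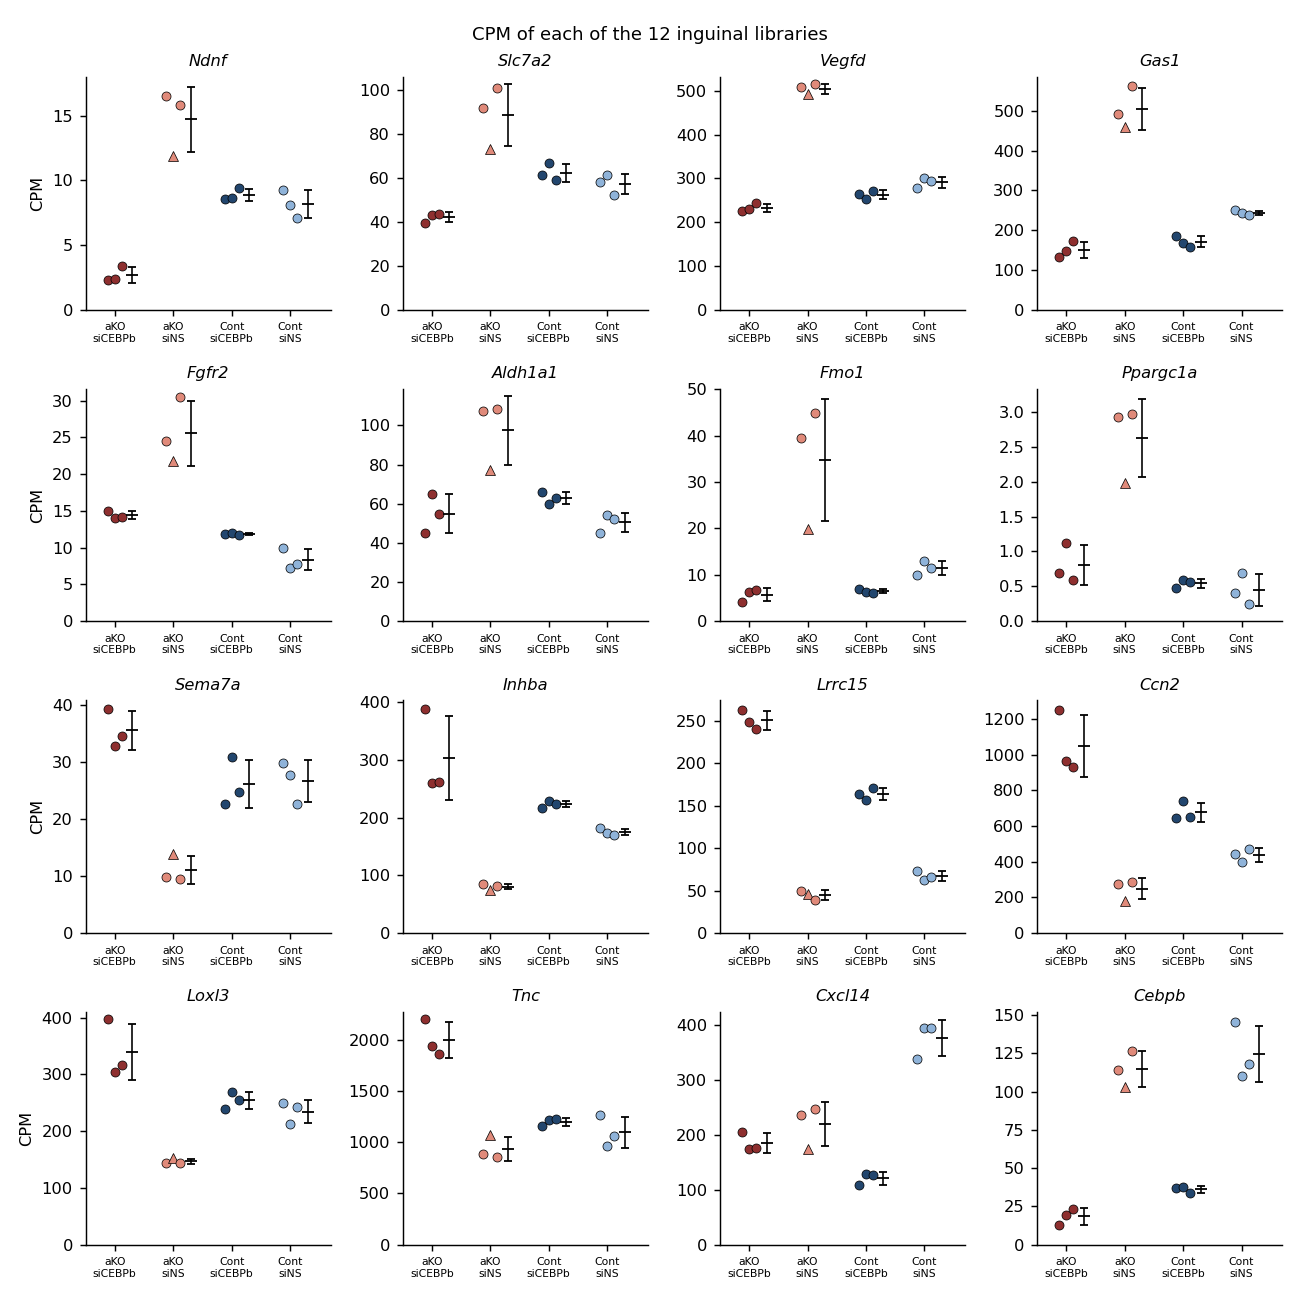
CPM of 16 genes in the 12 inguinal libraries, with 1 panel a gene and the groups aKO siCEBPb, aKO siNS, Cont siCEBPb and Cont siNS from left to right; bars give the mean and SD of 3 libraries, and the triangle marks the shallow library, aKO siNS replicate 2. In the panels from Ndnf to Ppargc1a aKO siNS is the highest group, and in those from Sema7a to Tnc aKO siCEBPb is the highest.

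Some called genes encode oxidising enzymes. The list of flavin monooxygenases and aldehyde-oxidising enzymes was put together after the values were seen, so its count is only a description: 5 of 17 tested members were negative and 2 positive, with a median of -0.76, or -0.70 without the shallow library, beside -0.02 over all tested genes. Fmo1, which adds oxygen to sulfur and nitrogen compounds, had 4.06, 6.27 and 6.74 CPM in aKO siCEBPb, 39.5, 19.8 and 44.8 in aKO siNS, 7.04, 6.39 and 6.10 in Cont siCEBPb and 9.87, 13.0 and 11.4 in Cont siNS. The 3 aKO siNS libraries stood above all others. Its interaction was -2.04 ± 0.25 (adjusted p = 2.41e-05), and -2.08 without the shallow library. Fmo2, a close relative in sequence and function, had an interaction of -1.75 ± 0.25 (adjusted p = 8.63e-05). Aox3, an aldehyde oxidase, had 0.153, 0.282 and 0.674 CPM in aKO siCEBPb, 5.16, 11.9 and 6.08 in aKO siNS, 1.52, 1.04 and 1.20 in Cont siCEBPb and 1.97, 1.88 and 2.17 in Cont siNS. Its interaction was -3.31 ± 0.51 (adjusted p = 2.82e-04), on counts that are low in aKO siCEBPb. Cyp2e1, a cytochrome P450 outside that list that oxidises small molecules such as ethanol, had 0.0765, 0.705 and 0.758 CPM in aKO siCEBPb, 6.02, 1.98 and 8.75 in aKO siNS, 3.42, 3.71 and 2.33 in Cont siCEBPb and 2.22, 4.65 and 2.65 in Cont siNS, and its interaction of -3.80 ± 0.68 (adjusted p = 0.00214) rests on the few reads of that group. Aox1, another aldehyde oxidase at -0.92 ± 0.22, is not among the 206, and its call was lost without Cont siCEBPb 1 (adjusted p up to 0.0526). The 2 positive members were Rdh10, which makes retinaldehyde, at 0.76 ± 0.15, and Aldh1a2, which makes retinoic acid, at 0.84. Aldh1a2 was named after its value was seen, and its call was lost without any 1 of aKO siCEBPb 2, aKO siNS 1, Cont siCEBPb 2, Cont siCEBPb 3 or Cont siNS 2 (up to 0.083).

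Genes that the knockdown raised more in Cont also gave a negative interaction. Col8a2, a chain of the network collagen VIII, had 81.4, 98.3 and 88.1 CPM in aKO siCEBPb, 21.0, 11.9 and 21.1 in aKO siNS, 62.8, 69.4 and 59.7 in Cont siCEBPb and 7.40, 5.54 and 4.57 in Cont siNS. It rose by 2.11 (adjusted p = 3.26e-12) in aKO and 3.42 (adjusted p = 4.62e-15) in Cont, and the 2 siNS groups differed more than the 2 siCEBPb groups. Its interaction was -1.31 ± 0.21 (adjusted p = 3.66e-04), and -1.33 without the shallow library. Angptl1, a secreted protein of the angiopoietin-like family, had 10.2, 14.4 and 13.6 CPM in aKO siCEBPb, 9.29, 3.96 and 9.51 in aKO siNS, 10.7, 11.2 and 10.6 in Cont siCEBPb and 2.39, 1.88 and 2.17 in Cont siNS, and an interaction of -1.86 ± 0.28 (adjusted p = 1.94e-04). Sema3c, a secreted semaphorin, rose by 0.70 in aKO and 1.73 in Cont, and Igfbp5, an IGF-binding protein, by 0.55 and 1.80. Their interactions were -1.03 ± 0.15 (adjusted p = 1.94e-04) and -1.25 ± 0.21 (adjusted p = 0.00121). Draxin, a secreted guidance protein of axons, fell in both genotypes, with log2 changes of -3.62 in aKO and -2.37 in Cont, with an interaction of -1.24 ± 0.17 (adjusted p = 5.65e-05). Ace, the angiotensin-converting enzyme, fell with log2 changes of -3.05 in aKO and -1.26 in Cont, with an interaction of -1.80 ± 0.22 (adjusted p = 5.78e-05).

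Among the positive genes, Sema7a, a membrane-anchored semaphorin (ENSMUSG00000038264, chromosome 9, 57940112 to 57962865, plus strand), had 39.2, 32.7 and 34.5 CPM in aKO siCEBPb, 9.72, 13.8 and 9.43 in aKO siNS, 22.6, 30.8 and 24.7 in Cont siCEBPb and 29.7, 27.7 and 22.6 in Cont siNS. The aKO siNS libraries were the lowest and the aKO siCEBPb libraries the highest, and the Cont groups overlapped. Its interaction was 1.91 ± 0.20 (adjusted p = 3.38e-06), and 1.93 without the shallow library. Inhba, which encodes the subunit of activin A (ENSMUSG00000041324, chromosome 13, 16011851 to 16031621, plus strand), had 388, 259.9 and 262 CPM in aKO siCEBPb, 84.1, 75.2 and 82.2 in aKO siNS, 217, 228 and 224 in Cont siCEBPb and 182, 174 and 171 in Cont siNS. Activin A is a signal of the TGF-beta family that acts on adipocyte precursors. The log2 difference of aKO over Cont was 0.44 (adjusted p = 0.0141) under siCEBPb and -1.09 (adjusted p = 2.11e-06) under siNS. The Inhba interaction was 1.53 ± 0.18 (adjusted p = 1.64e-05), and 1.52 without the shallow library.

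The knockdown raised Lrrc15, a membrane protein of activated fibroblasts, in both genotypes but by different amounts. It had 263, 249 and 240.4 CPM in aKO siCEBPb, 49.5, 45.5 and 38.3 in aKO siNS, 164, 157 and 171 in Cont siCEBPb and 73.1, 62.6 and 65.4 in Cont siNS, with no overlap between any of the 4 groups. The rise was 2.51 (adjusted p = 8.84e-15) in aKO and 1.29 (adjusted p = 3.41e-10) in Cont, and the interaction 1.22 ± 0.16 (adjusted p = 2.55e-05), or 1.23 without the shallow library. Cxcl14, a chemokine, reached a positive interaction by the opposite route. It had 206, 174 and 176 CPM in aKO siCEBPb, 236, 174 and 248 in aKO siNS, 108, 128 and 127 in Cont siCEBPb and 339, 395 and 396 in Cont siNS: the aKO groups overlapped and Cont siNS stood above all other libraries. It fell by 0.31 in aKO and fell by 1.64 in Cont on the log2 scale, and its interaction was 1.33 ± 0.17 (adjusted p = 2.41e-05), or 1.25 without the shallow library. Il1rl1, the receptor for interleukin 33, had a knockdown effect of 0.35 (adjusted p = 0.0648) in aKO, fell in Cont with -1.14 (adjusted p = 7.04e-07) and had an interaction of 1.49 ± 0.19 (adjusted p = 7.64e-05). Chst11, which sulfates chondroitin, rose in aKO (0.49) and fell in Cont (-0.33), with an interaction of 0.82 ± 0.11 (adjusted p = 3.36e-05).

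Semaphorins, plexins and neuropilins, which carry guidance signals between cells, were put together as a list after the values were seen, and 1 of 28 tested members was positive and 2 negative, with a median of -0.17, or -0.13 without the shallow library. The calls were Sema7a, Sema3c and Plxna2, a semaphorin receptor at -0.79 ± 0.12.

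The lists of known pathways and cell types, chosen with earlier results of these data known, are described by their counts and by the median interaction of their tested members, beside 3.51% called and a median of -0.02 over all tested genes. Over all genes, 2456 of 14785 had an unadjusted p under 0.05 in edgeR. Voom called 1204 of 14785 genes, and DESeq2's Wald test 547 of 13057. The list counts below are to be read beside these shares. All 38 ribosomal protein genes had a positive estimate with the shallow library and 10 without it, with medians of 0.20 and -0.04, while edgeR, DESeq2 and voom called 0 and 0 had an unadjusted p under 0.05 in edgeR. Of 35 tested members of the collagen and matrix list, 6 were positive and 2 negative, with a median of -0.26, or -0.04 without the shallow library. The positive members included Tnc, an adhesion-modulating matrix protein, Loxl3 and Loxl2, which cross-link collagen, and the collagens Col8a1 and Col11a1. Tnc had 2204, 1937 and 1866 CPM in aKO siCEBPb, 884, 1068 and 852 in aKO siNS, 1159, 1214 and 1226 in Cont siCEBPb and 1263, 966 and 1065 in Cont siNS, with all aKO siCEBPb libraries above all others, and an interaction of 0.98 ± 0.16 (adjusted p = 3.54e-04). Loxl3 had 397, 305 and 316 CPM in aKO siCEBPb, 145, 152 and 144 in aKO siNS, 239, 269 and 254 in Cont siCEBPb and 249, 212 and 242 in Cont siNS, and an interaction of 1.11 ± 0.15 (adjusted p = 6.22e-05). Col8a1 and Col11a1 had interactions of 0.82 ± 0.11 and 0.73 ± 0.12, and Loxl2 of 0.47 ± 0.11. Loxl2 lost its call when the 12 inguinal libraries were fitted alone. Fmod, fibromodulin, which regulates collagen fibrils, was negative at -1.09 ± 0.20 (adjusted p = 0.00307). Among 26 tested matrix proteases and their inhibitors, 3 were negative: Mmp11, a matrix metalloproteinase, at -1.14 ± 0.19 (adjusted p = 8.64e-04), with Adamts2 and Mmp2 described further down.

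Genes of contraction and of the cell skeleton had mostly positive calls. Of 18 tested smooth muscle, pericyte and contractile genes, 5 were positive and 1 negative, with a median of 0.60, or 0.58 without the shallow library. The siRNA raised 11 of the 18 and lowered 2 in each genotype, where it raised 13.6% and lowered 17.7% of all tested genes in aKO and 10.3% and 14.0% in Cont. Their summed level ranged from 5053 to 6483 CPM in aKO siCEBPb, 1088 to 2057 in aKO siNS, 4131 to 4450 in Cont siCEBPb and 2165 to 2733 in Cont siNS, without overlap between the 4 groups. Myl9, a light chain of myosin, had 438, 349 and 335 CPM in aKO siCEBPb, 122, 73.2 and 108 in aKO siNS, 295, 283 and 291 in Cont siCEBPb and 147, 141 and 172 in Cont siNS, and an interaction of 0.84 ± 0.16 (adjusted p = 0.00228). Acta2, smooth muscle actin, had 2896, 2304 and 2296 CPM in aKO siCEBPb, 882, 398 and 782 in aKO siNS, 1928, 1795 and 1867 in Cont siCEBPb and 960.3, 876 and 1152 in Cont siNS. Its interaction was 0.91 ± 0.24 (adjusted p = 0.0306), and 0.68 without the shallow library, which has its lowest value. The calls of Acta2, Tagln, Tpm2 and Actg2 are not among the 206. Those of Acta2 and Tagln, an actin-binding protein at 0.94 ± 0.25, were each lost without any 1 of aKO siCEBPb 1, Cont siCEBPb 1, Cont siCEBPb 2, Cont siCEBPb 3, Cont siNS 1 or Cont siNS 3 (adjusted p up to 0.117 for both). Tpm2, a tropomyosin at 0.67 ± 0.17, lost its call without any 1 of aKO siCEBPb 1, aKO siNS 3, Cont siCEBPb 2, Cont siCEBPb 3 or Cont siNS 3 (up to 0.118), and Actg2, another actin at 1.20 ± 0.32, without any 1 library but aKO siCEBPb 1, aKO siCEBPb 2 and aKO siCEBPb 3 (up to 0.131). The negative member was Abcc9, a subunit of potassium channels of pericytes, at -1.23 ± 0.25 (adjusted p = 0.00503).

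A list of targets of YAP and TEAD, the effectors of the Hippo pathway, was added after the values were seen. It had 4 positive and 1 negative of 22 tested members and a median of 0.09, or 0.12 without the shallow library. Ccn2, a secreted matrix-associated protein, had 1251, 966 and 929 CPM in aKO siCEBPb, 276, 180.0 and 286 in aKO siNS, 643, 739.7 and 652 in Cont siCEBPb and 443, 397 and 472 in Cont siNS, with all 3 aKO siCEBPb libraries above all others. Its interaction was 1.38 ± 0.19 (adjusted p = 7.64e-05), and 1.27 without the shallow library. Ankrd1, a nuclear ankyrin-repeat protein, had 26.1, 14.9 and 18.6 CPM in aKO siCEBPb, 2.75, 0 and 2.66 in aKO siNS, 11.7, 11.2 and 14.1 in Cont siCEBPb and 7.90, 7.52 and 8.54 in Cont siNS, and an interaction of 2.27 ± 0.37 (adjusted p = 7.85e-04). The other positive members, Nuak2 and Axl, at 0.80 ± 0.19 and 0.53 ± 0.14, are not among the 206. Nuak2 lost its call without any 1 of aKO siCEBPb 1, aKO siNS 1, aKO siNS 3, Cont siCEBPb 1 or Cont siNS 1 (up to 0.083), and Axl without any 1 library but aKO siCEBPb 2, aKO siCEBPb 3, aKO siNS 1, aKO siNS 2 and Cont siNS 2 (up to 0.152). The negative one, Igfbp3, an IGF-binding protein at -1.02 ± 0.28, lost its call without any 1 library but aKO siCEBPb 2 (up to 0.135).

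**Figure D4:**
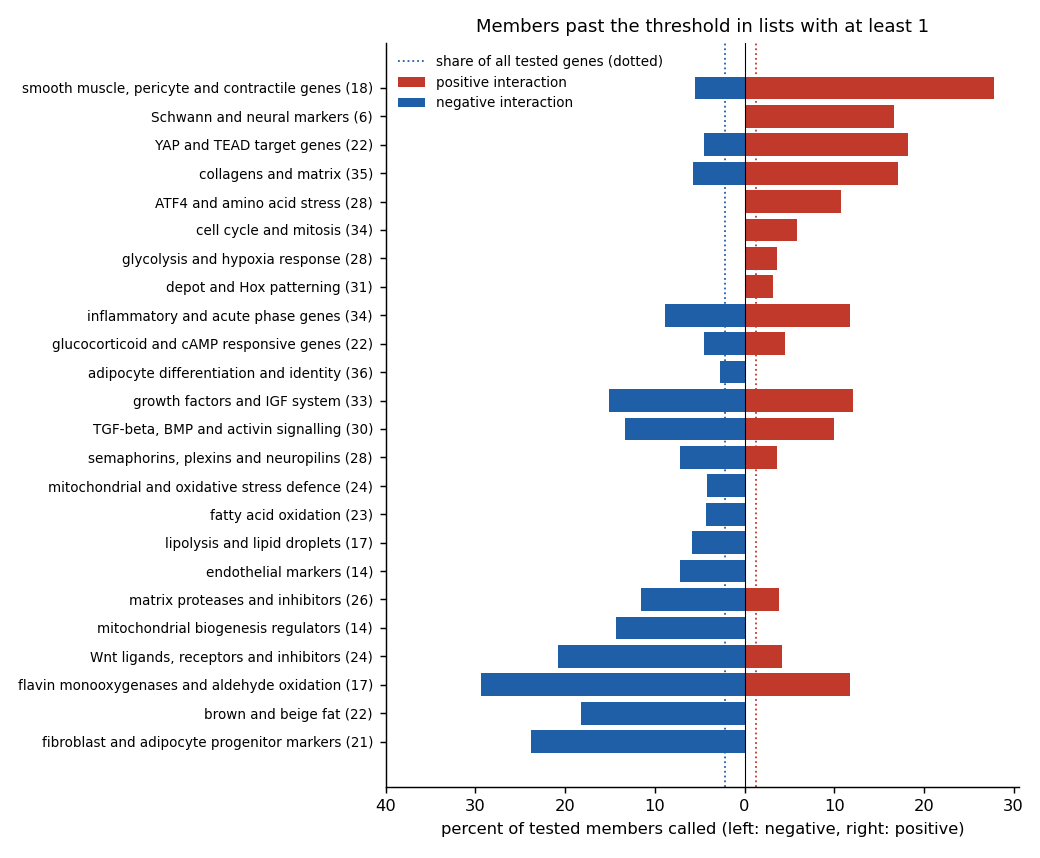
Percent of the tested members of each gene list with a called interaction, negative to the left and positive to the right, for the lists with at least 1 called member; the number of tested members is in brackets and dotted lines mark the shares over all tested genes, 2.19% negative and 1.32% positive. Contractile genes reach farthest to the right, and the flavin monooxygenase list, which was added after the values were seen, farthest to the left.

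TGF-beta, BMP and activin signalling had called members in both directions, 3 positive and 4 negative of 30, with a median of 0.09, or 0.04 without the shallow library, where 3 were positive and 7 negative. Beside Inhba, the positive members were Fstl3, which binds and blocks activin, at 0.77 ± 0.12 (adjusted p = 2.94e-04), and Bmpr1b, a BMP receptor, at 0.99 ± 0.21 (adjusted p = 0.00696). The knockdown effect on Fstl3 was 0.19 (adjusted p = 0.114) in aKO and -0.58 (adjusted p = 2.57e-06) in Cont. Id2 and Id3, targets of BMP signalling that block helix-loop-helix factors, were negative at -0.89 ± 0.17 (adjusted p = 0.00239) and -0.80 ± 0.15 (adjusted p = 0.00209). Id3 had 85.2, 84.6 and 84.2 CPM in aKO siCEBPb, 139, 87.0 and 164 in aKO siNS, 90.1, 106 and 85.0 in Cont siCEBPb and 93.0, 89.0 and 91.7 in Cont siNS. Chrdl1, a secreted BMP antagonist, was negative at -1.69 ± 0.38 (adjusted p = 0.00922) and lost its call when the inguinal libraries were fitted alone. Gdf10, a secreted member of the family at -0.72 ± 0.18, lost its call without any 1 of aKO siCEBPb 1, aKO siNS 3, Cont siCEBPb 2, Cont siCEBPb 3 or Cont siNS 1 (up to 0.0955).

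Of 24 tested Wnt ligands, receptors and inhibitors, 5 were negative and 1 positive, with a median of -0.20, or -0.23 without the shallow library. Sfrp2, a secreted Wnt antagonist, had 127, 187 and 202 CPM in aKO siCEBPb, 867, 635 and 897 in aKO siNS, 139.7, 129 and 129 in Cont siCEBPb and 310.3, 307 and 278 in Cont siNS. It was high in aKO siNS and its siCEBPb groups overlapped, with an interaction of -1.08 ± 0.21 (adjusted p = 0.00399), or -1.19 without the shallow library. Fzd4, a Wnt receptor, was negative at -0.79 ± 0.15 (adjusted p = 0.00267), and Rspo3, which strengthens Wnt signalling, at -1.06 ± 0.21 (adjusted p = 0.00313). The other calls are not among the 206. Sfrp1, another antagonist at -0.52 ± 0.13, lost its call without any 1 library but aKO siCEBPb 3, aKO siNS 1, aKO siNS 2, Cont siNS 2 and Cont siNS 3 (up to 0.0805). Axin2, a feedback target of the pathway at -0.89 ± 0.25, lost it without any 1 library but aKO siCEBPb 3, aKO siNS 2 and Cont siNS 3 (up to 0.15), and Wnt2b, a ligand at 1.61 ± 0.44, without any 1 library but aKO siCEBPb 2, aKO siCEBPb 3, aKO siNS 2, Cont siCEBPb 2 and Cont siCEBPb 3 (up to 0.16).

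Growth factors and the IGF system had 5 negative and 4 positive of 33 tested members, with a median of -0.21, or -0.09 without the shallow library. Besides Vegfd and Igfbp5, Igfbp4 was negative at -1.01 ± 0.21 (adjusted p = 0.00572). Ntrk2, the receptor of the neurotrophin BDNF, had 4.29, 9.30 and 7.66 CPM in aKO siCEBPb, 29.4, 31.6 and 27.8 in aKO siNS, 7.89, 5.72 and 8.27 in Cont siCEBPb and 6.50, 6.73 and 5.17 in Cont siNS, high in aKO siNS only, and an interaction of -2.24 ± 0.44 (adjusted p = 0.00597). Its ligand Bdnf was positive at 1.53 ± 0.34, a call lost without either aKO siNS 1 or Cont siNS 1 (adjusted p up to 0.0699). Pdgfa, a growth factor for fibroblasts, was positive at 0.60 ± 0.14, a call lost without aKO siNS 3 (0.0808). In the glycolysis and hypoxia list 23 of 28 tested members had a positive value, with a median of 0.25, or 0.20 without the shallow library. With all libraries voom called 5 and DESeq2 1, and edgeR called 3 without the shallow library, all positive. The 1 that edgeR called with all libraries was Slc2a1, the glucose transporter GLUT1, positive at 0.52 ± 0.10 (adjusted p = 0.00209). It fell in both genotypes and less in aKO, with 104, 93.4 and 99.7 CPM in aKO siCEBPb, 119.9, 121 and 122 in aKO siNS, 117, 124 and 121 in Cont siCEBPb and 202, 216 and 219 in Cont siNS.

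The brown and beige fat list bears on the study's title. Ucp1, the uncoupling protein that defines thermogenic fat, had 1 read in all 12 inguinal libraries together, and Cidea, another brown fat marker, had 3, so neither could be tested at this depth. Of 22 tested members of the list, 4 were negative and none positive, with a median of -0.27, and without the shallow library 5 were negative, with a median of -0.28. DESeq2's Wald test called 1 of the 22 and voom 6. Ppargc1a, a coactivator that drives mitochondrial and thermogenic genes, had 0.689, 1.13 and 0.589 CPM in aKO siCEBPb, 2.93, 1.98 and 2.97 in aKO siNS, 0.475, 0.594 and 0.562 in Cont siCEBPb and 0.411, 0.693 and 0.241 in Cont siNS. It was high in aKO siNS only, at low levels throughout, and the other groups overlapped. Its interaction was -2.08 ± 0.53 (adjusted p = 0.0244), and -2.098 without the shallow library. The call was lost without any 1 library but aKO siCEBPb 2, aKO siCEBPb 3, aKO siNS 2, Cont siCEBPb 1 and Cont siNS 2 (adjusted p up to 0.0798), and also when the inguinal libraries were fitted alone. Of 14 tested regulators of mitochondrial biogenesis, edgeR called 2, DESeq2's Wald test 0 and voom 3.

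The other called members of that list were as dependent on single libraries. Ppargc1b, a coactivator of the same family, had 0.459, 1.27 and 0.926 CPM in aKO siCEBPb, 5.33, 9.89 and 5.70 in aKO siNS, 1.52, 1.34 and 1.37 in Cont siCEBPb and 3.78, 3.66 and 3.13 in Cont siNS, and an interaction of -1.31 ± 0.37 (adjusted p = 0.0426). It fell in both genotypes and further in aKO, and its call was lost without any 1 library but aKO siCEBPb 2 and aKO siNS 2 (up to 0.186). Tmem26, a surface marker of beige cells, was negative at -1.60 ± 0.44, a call lost without any 1 library but aKO siNS 2 and Cont siCEBPb 2 (up to 0.188). Acot2, a mitochondrial thioesterase, was negative at -0.69 ± 0.19, a call lost without any 1 library but aKO siCEBPb 2, aKO siCEBPb 3, aKO siNS 1, aKO siNS 2 and Cont siNS 2 (up to 0.279). Prdm16, a regulator of brown fat identity, had an interaction of -0.04 ± 0.20 (adjusted p = 0.964). Of 48 tested respiratory chain genes edgeR and DESeq2 called 0 and voom 1, with 0 at an unadjusted p under 0.05 in edgeR, and their median was -0.06, or -0.11 without the shallow library.

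Most adipocyte genes had negative estimates that did not pass the test. In the list of adipocyte differentiation and identity, 30 of 36 tested members had a negative interaction and the median was -0.53, or -0.57 without the shallow library, but 1 was called in either fit. That member was Rxra, a partner receptor of PPARγ, at -0.35 ± 0.10, and its call was lost without any 1 library but aKO siNS 2 (up to 0.132). Their summed level ranged from 3774 to 6382 CPM in aKO siCEBPb, 10207 to 12470 in aKO siNS, 4864 to 6154 in Cont siCEBPb and 7539 to 10168 in Cont siNS, so that the aKO groups did not overlap and neither did the Cont groups. Cebpa had 31.2, 51.7 and 48.1 CPM in aKO siCEBPb, 135, 105 and 167 in aKO siNS, 49.0, 44.9 and 48.1 in Cont siCEBPb and 83.8, 97.1 and 87.1 in Cont siNS, with an interaction of -0.82 ± 0.27 (adjusted p = 0.106). Pparg had 22.1, 27.1 and 27.9 CPM in aKO siCEBPb, 36.1, 17.8 and 44.3 in aKO siNS, 26.1, 20.8 and 26.3 in Cont siCEBPb and 19.99, 29.6 and 26.7 in Cont siNS, with an interaction of -0.55 ± 0.22 (adjusted p = 0.194). Adipoq, which encodes adiponectin, had 71.6, 136 and 133 CPM in aKO siCEBPb, 149.8, 59.3 and 187 in aKO siNS, 93.0, 74.4 and 101 in Cont siCEBPb and 65.8, 94.9 and 87.9 in Cont siNS, and the groups overlapped, with an interaction of -0.56 ± 0.41 (adjusted p = 0.548). Of 23 tested lipogenic genes edgeR and DESeq2 called 0 and voom 2, with 6 at an unadjusted p under 0.05 in edgeR, and 19 had a negative value, with a median of -0.24. Without the shallow library edgeR called 2 of them, both negative, with a median of -0.32. In bulk RNA, fewer adipocytes and less RNA per adipocyte cannot be told apart.

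Markers of other cells moved with the groups as well. Of 19 tested macrophage and leukocyte markers, the siRNA lowered 18 in aKO and 17 in Cont, beside 17.7% and 14.0% of all tested genes. In the interaction edgeR called 0 of them, with 9 at an unadjusted p under 0.05, where 2456 of all 14785 tested genes had such a p. DESeq2 and voom called 2 each, where voom called 1204 of the 14785. A negative value was found for 18, with a median of -0.80, or -0.88 without the shallow library. Their summed level ranged from 120.5 to 254 CPM in aKO siCEBPb, 1096 to 1971 in aKO siNS, 517 to 555 in Cont siCEBPb and 2389 to 3280 in Cont siNS, so the 4 groups did not overlap. Ptprc, which encodes CD45, ranged from 3.98 to 9.77 CPM in aKO siCEBPb and from 37.6 to 45.0 in aKO siNS, and from 16.6 to 18.2 in Cont siCEBPb and from 40.8 to 61.5 in Cont siNS. Cd3e, a T cell marker, was at 0 in all 12 libraries. The part of these cells in the interaction was not tested.

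Fibroblast and progenitor markers had 5 negative and no positive calls of 21 tested, with a median of -0.50, or -0.48 without the shallow library, where 7 were negative. Sema3c is among the 206, and the others are not. Pdgfra, the receptor that marks adipocyte precursors, had 399, 473 and 505 CPM in aKO siCEBPb, 808, 899.9 and 766 in aKO siNS, 467, 449 and 476 in Cont siCEBPb and 581, 575 and 599 in Cont siNS, with an interaction of -0.50 ± 0.13 and a call lost without any 1 of aKO siCEBPb 1, Cont siCEBPb 1, Cont siCEBPb 3, Cont siNS 1 or Cont siNS 2 (up to 0.122). Cd34, a surface marker of precursors at -1.40 ± 0.36, lost its call without any 1 library but aKO siCEBPb 2, aKO siCEBPb 3 and aKO siNS 2 (up to 0.112). Ly6c1 at -0.88 ± 0.20, a gene with a near-identical neighbour whose reads counting could split, lost it without any 1 of aKO siCEBPb 1, aKO siNS 1, aKO siNS 3 or Cont siCEBPb 2 (up to 0.0788), and Gdf10 is given above. Among 14 endothelial markers the single call was Tek, the angiopoietin receptor, at -1.04 ± 0.18 (adjusted p = 0.00105), and the level of Pecam1 ranged from 0.765 to 4.90 CPM over the 12 libraries. Of 8 tested mesothelial markers edgeR and DESeq2 called 0 and voom 1, with 2 at an unadjusted p under 0.05 in edgeR. Wt1, a mesothelial marker, had 1.38, 1.41 and 2.105 CPM in aKO siCEBPb, 1.46, 1.98 and 1.45 in aKO siNS, 14.5, 15.01 and 14.4 in Cont siCEBPb and 14.3, 14.7 and 14.2 in Cont siNS, a difference between the genotypes under either siRNA, with an interaction of 0.11 ± 0.28 (adjusted p = 0.913). No epithelial marker was detected well enough to be tested.

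Inflammatory and acute phase genes had 4 positive and 3 negative calls of 34, with a median of -0.40, or -0.44 without the shallow library, where 4 were positive and 5 negative. C3, the central complement protein, had 24.8, 47.9 and 53.2 CPM in aKO siCEBPb, 342, 490.5 and 411 in aKO siNS, 162, 146 and 159 in Cont siCEBPb and 410.2, 463 and 336 in Cont siNS. The siCEBPb libraries of aKO were the lowest, the siNS groups overlapped, and the interaction was -1.88 ± 0.35 (adjusted p = 0.00445). Il1rn, the antagonist of the interleukin 1 receptor, was negative at -1.05 ± 0.17 (adjusted p = 6.51e-04), and Cxcl13, a chemokine that attracts B cells, at -3.73 (adjusted p = 0.0102). Cxcl13 was named after its value was seen, and its call was lost without Cont siCEBPb 3 (0.0934). C7, a complement protein outside the list, was negative at -1.81 ± 0.36 (adjusted p = 0.00301). The leukocyte marker levels given above stand beside these calls. The positive members were Cxcl14, Ptgs2, and the chemokines Ccl2 and Ccl7. Ptgs2, the inducible cyclooxygenase, had 70.2, 38.2 and 36.5 CPM in aKO siCEBPb, 7.23, 5.93 and 7.99 in aKO siNS, 19.9, 23.9 and 23.9 in Cont siCEBPb and 19.3, 21.4 and 16.5 in Cont siNS, with 1 aKO siCEBPb library well above the other 2, and an interaction of 2.43 ± 0.49 (adjusted p = 0.00888). Ccl2 and Ccl7 had interactions of 0.91 ± 0.19 (adjusted p = 0.00869) and 0.83 ± 0.16 (adjusted p = 0.00314).

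All 34 tested genes of the cell cycle list had a positive interaction, with a median of 0.34, against 47.3% positive over all tested genes, and also with DESeq2 size factors and without the shallow library. By edgeR 2 were called, Ccne1, a cyclin that drives entry into S phase, and Top2a, which untangles DNA, and 5 without the shallow library. The siRNA lowered 5 of the 34 in aKO, where it lowered 17.7% of all tested genes, and 29 in Cont, where it lowered 14.0%. Top2a had 87.0, 77.9 and 73.8 CPM in aKO siCEBPb, 91.5, 77.1 and 87.2 in aKO siNS, 95.8, 93.2 and 93.9 in Cont siCEBPb and 143, 149 and 133 in Cont siNS, highest in Cont siNS, and an interaction of 0.44 ± 0.12 whose call was lost without any 1 library but aKO siCEBPb 2, aKO siCEBPb 3, aKO siNS 1, aKO siNS 2 and Cont siNS 3 (up to 0.123). Ccne1, at 0.63 ± 0.14, lost its call without aKO siNS 3 (0.0514). Mki67, a marker of dividing cells, had 112, 102 and 99.3 CPM in aKO siCEBPb, 144, 134 and 132 in aKO siNS, 137, 143 and 146 in Cont siCEBPb and 252, 244 and 219 in Cont siNS. Its interaction was 0.35 ± 0.12 (adjusted p = 0.0883), and 0.35 (adjusted p = 0.0377) without the shallow library. Over 21 other settings, with or without that library, the adjusted p of Mki67 ran from 0.0119 to 0.264, and it was not called in 16 of them. Of 28 genes of ATF4 and amino acid stress, 21 had a positive value, with a median of 0.25 with and without the shallow library. With all libraries voom called 7 and DESeq2 1, and edgeR called 6 without the shallow library, all positive. The 3 that edgeR called with all libraries were positive, Mthfd2, Pycr1 and Cth, at 0.41 ± 0.10, 0.43 ± 0.12 and 0.66 ± 0.19. None of the 3 is among the 206: Mthfd2 lost its call without any 1 of aKO siCEBPb 1, aKO siNS 3, Cont siCEBPb 1, Cont siCEBPb 3 or Cont siNS 3 (up to 0.108), Pycr1 without any 1 library but aKO siNS 2 (up to 0.121) and Cth without any 1 library but aKO siCEBPb 3 and aKO siNS 2 (up to 0.138).

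In the list of lipolysis and lipid droplets 14 of 17 tested members had a negative value, with a median of -0.34, or -0.30 without the shallow library. In either fit 1 was called, with all libraries Prkar2b, a regulatory subunit of protein kinase A, at -0.94 ± 0.24. In fatty acid oxidation 21 of 23 tested members had a negative value, with a median of -0.23, or -0.25 without the shallow library. With all libraries voom called 4 and DESeq2 1, and edgeR called 3 without the shallow library, all negative. The 1 that edgeR called with all libraries was Cpt2, an enzyme of fatty acid import into mitochondria, at -0.60 ± 0.16. The remaining called proteases were Mmp2, a gelatinase, and Adamts2, which trims procollagen, at -0.44 ± 0.12 and -0.69 ± 0.19. None of these 4 genes is among the 206. Prkar2b lost its call without any 1 library but aKO siCEBPb 2, aKO siCEBPb 3, aKO siNS 2, Cont siCEBPb 2 and Cont siNS 2 (up to 0.119) and Cpt2 without any 1 library but aKO siCEBPb 2, aKO siCEBPb 3, aKO siNS 2 and Cont siNS 2 (up to 0.164). Mmp2 lost it without any 1 library but aKO siCEBPb 3, aKO siNS 1 and aKO siNS 2 (up to 0.189), and Adamts2 without any 1 library but aKO siCEBPb 2, aKO siCEBPb 3, aKO siNS 1 and aKO siNS 3 (up to 0.152).

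The promoters of called genes were searched for 2 motifs on both strands in the window from 250 bases before to 50 after the gene start (RefSeq, GRCm38.p6), because C/EBP proteins bind sites of the first kind and dimers with ATF4 sites of the second. TTGCNNAA was held by 12.6% of 246 negative genes with a promoter in the table, 14.0% of 143 positive genes and 10.2% of 10730 tested genes. TTGCATCA, which shares its first letters with the other motif, was held by 0.407%, 0.699% and 0.755%. The shares of called genes lie near those of all genes, and a match is a description, not a binding site. For 3 genes described above that hold the first motif, the stretch around the match is printed as an example of each direction of change, Fmod and Sfrp2 negative and Inhba positive, with the match on either strand in capitals.
Fmod, chr1:134037113-134037152, plus strand: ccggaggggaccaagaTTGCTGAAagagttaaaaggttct
Sfrp2, chr3:83766260-83766299, plus strand: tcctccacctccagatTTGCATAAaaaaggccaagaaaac
Inhba, chr13:16011768-16011807, plus strand: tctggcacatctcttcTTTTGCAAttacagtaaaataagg

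The interaction was set beside the same term in eWAT, which shares no library with it. In eWAT 938 of 14785 genes were called (6.34%), and 1677 (11.2%) in the fit without the shallow inguinal library. Of the 519 inguinal genes, 513 had the same sign in eWAT, against 70.5% of all tested genes, and 373 were also called there in the same direction, which is 71.9% of the inguinal and 39.8% of the epididymal list. None was called in the opposite direction. Across these 519 genes the interactions of both depots had a Pearson r of 0.937, and 0.569 across all tested genes, as a description over genes that are not independent replicates and over libraries that deviate together by number. Ndnf had an interaction of -2.40 in eWAT, Sema7a 2.05, Inhba 1.66, Aldh1a1 -1.31 and Ppargc1a -1.74. The difference between the depots was called for 0 genes by edgeR, DESeq2 and voom. In edgeR 294 of 14785 genes had an unadjusted p under 0.05, and without the shallow library 438 of 14973, again with 0 called. Both are smaller shares than the 0.05 that a well-calibrated test gives where nothing differs. The fit took same-numbered libraries of both depots as independent, and the effect of that on this contrast was not tested. A count of 0 does not show that the depots act alike, and the marker genes given at the start did not pass between them.

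**Figure D5:**
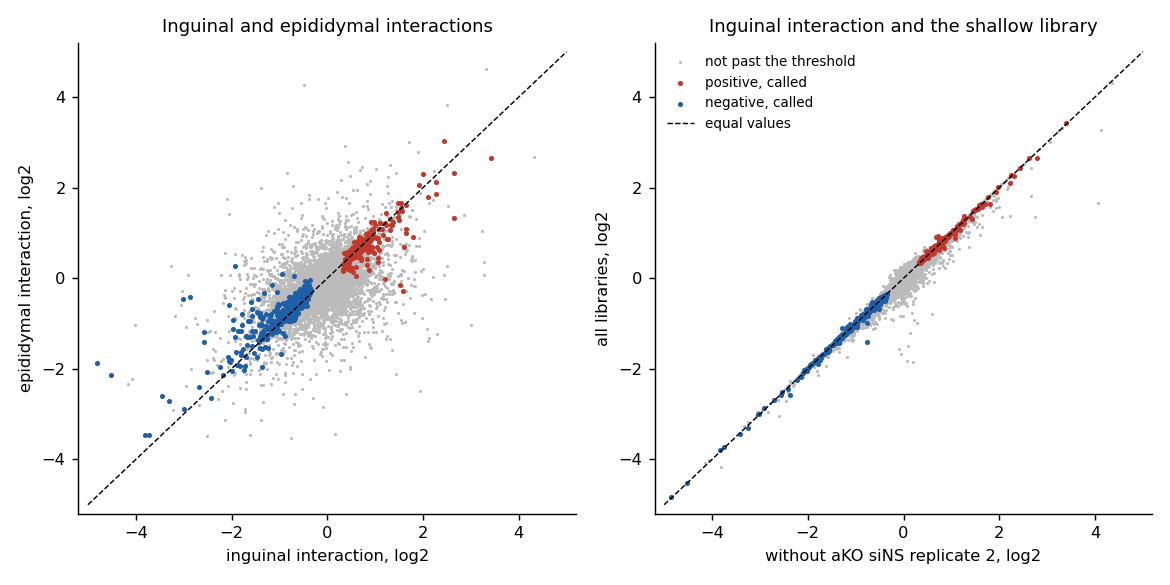
Interaction of each tested gene on the log2 scale, in eWAT on the vertical axis against iWAT on the horizontal axis (left), and in iWAT with all libraries against iWAT without aKO siNS replicate 2 (right), with dashed lines of equal values. Called inguinal genes (red positive, blue negative) lie along the line in both panels, with more scatter between depots than between the fits with and without the shallow library.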

How the data were processed

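The 12 iWAT and 12 eWAT libraries of RNA were placed by their labels in 8 groups of 3, by depot, genotype and siRNA. The submitters' processing notes name cutadapt 2.7, TopHat2 2.1.1, HTSeq and edgeR with the GRCm38 genome, and the labels' protocols describe a directional library kit. How strand was set in counting is not stated in these sources, which leaves genes on opposite strands of 1 locus uncertain. The deposited table gave raw read counts for 53465 genes. Its 5 counter lines, which hold 30.5% to 39.5% of the reads in 11 inguinal libraries and 95.9% in aKO siNS replicate 2, were not used as genes. The authors' per-sample files repeat these counts divided by 1 constant for each library and were not used.

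All 24 libraries went into 1 quasi-likelihood fit of edgeR 4.0.16 (R 4.3.3; filterByExpr, minimum count 10; TMM; robust glmQLFit), so that they share 1 estimate of the spread, with no replicate block. TMM factors were 0.985 to 1.04 in 23 libraries and 0.840 in the shallow one. P-values were adjusted over all genes tested in a contrast, and errors of log2 values are SE of the fit. The fit takes the 24 libraries as independent, although iWAT and eWAT libraries of the same group and number deviated together on average. If they share a source, the p-values may be too small, which was not tested. The 12 inguinal libraries fitted alone gave 303 called genes for the interaction. The settings tried besides were size factors of DESeq2 1.42.0, its Wald test, voom of limma 3.58.1 with sample weights, no filter, a filter of 1 CPM in 12 libraries, fits of a single depot, a replicate block, and fits without the shallow library or any other single inguinal library. No 2 libraries held identical counts.

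The members and gene lists were chosen with earlier results of these data known, and 3 lists (YAP and TEAD targets, semaphorins and plexins, flavin monooxygenases) were added after the values were seen. Genes were named if they were among 22 chosen for their role, the 20 largest interactions each way among genes whose log2 CPM averaged 1 or more, the 15 of smallest p, up to 6 called members of a list or its 4 most expressed, or those of smallest p shared by both depots, in a class of response, or lost or gained with the shallow library. In simulated counts of the inguinal interaction the test recovered 38 of 67 genes changed 1.5-fold, 56 of 67 changed 2-fold and 66 of 66 changed 4-fold, with 6 false calls of 166, and called 0 where nothing changed. The simulated libraries were drawn independently around 1 shared profile of levels. They had neither the altered composition of the shallow library nor deviations shared by iWAT and eWAT libraries. These counts therefore do not give the error rate of the fit to the real libraries.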

Additional observations from a re-analysis of the deposited data

Results flagged for a closer look

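The interaction itself is a difference between the genotypes in the effect of the same siRNA, tested by its own term, and it was called for 519 genes. The genes with the smallest p are given in the report with the value of each library. Groups of 3 libraries are too small for a test of single libraries standing apart on 1 value, but over all genes aKO siNS replicate 2 stood apart from its group, as given in the report.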

How the results depend on the processing

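The inguinal interaction was called for 519 genes as reported. The count was 522 with DESeq2 size factors, 556 with a stricter filter and 547 by DESeq2's Wald test. It was 921 without a filter, 1204 with limma voom and sample weights and 303 in a fit of the 12 inguinal libraries alone. Fitted alone without the shallow library, those libraries gave 990. Leaving out single inguinal libraries gave 291 to 939 for this count, 942 to 1972 for the genotype difference under siCEBPb (1483 as reported), 1436 to 2752 under siNS (2243), 3611 to 5199 for the knockdown in aKO (4624), 2822 to 4360 in Cont (3597) and 797 to 1677 for the epididymal interaction (938), the highest of each range without aKO siNS replicate 2. Voom called 2551 genes for the genotype difference under siCEBPb and 2007 for the epididymal interaction, which was 1447 in a fit of that depot alone. The depot difference stayed at 0 except for 8 genes without a filter, and was not run within a depot. The cause of these changes was not tested.

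With a replicate block the inguinal count was 600, and 1148 with the block and without the shallow library, where the epididymal count was 1869. The numbers were not taken as pairs: libraries of 2 inguinal groups with the same number had a mean r of 0.0089 over 18 pairs, 4 of them over 0.1. For 129 genes recomputed under each setting, 2346 values kept their side of the threshold, 335 called ones lost it, 25 gained it and none turned its sign while called. A called gene to which DESeq2's Wald test gave no adjusted p was counted as kept, so the 2346 may include calls that DESeq2 did not make. At this depth genes such as Ucp1 could not be tested.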
